A study of Homo sapiens with 2 samples.

Results

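Among the otic epithelial cells of day 40 human inner ear organoids, 1 class of cells carried transcripts of NPY, CITED1, ATP6V0D2 and CA2. The class held 1134 of 21319 kept cells in the GelNB-CH library and 354 of 10499 kept cells in the Matrigel library. Kept cells had at least 1000 detected genes and at most 15% mitochondrial UMIs (unique molecular identifiers, each standing for 1 captured RNA molecule). A cell counted as otic with at least 5 UMIs of OC90, fewer than 5 of COL1A2, fewer than 3 of CDH19 and fewer than 3 of the cycling genes MKI67, TOP2A and UBE2C together. It joined the class when NPY, CITED1, ATP6V0D2 and CA2 summed to at least 3 UMIs (the D sum) and that sum exceeded each of 3 other sums. Those were CALB1, WIF1, HMX2 and MYBPC1 (A), OTX2, GSC, CASC17 and ATP13A5 (B), and GPC5 and IRX3 (C). The remaining otic cells, led by A, B or C or by no sum, are called other otic cells below. The cells were chosen by the measured values of these genes, so the levels that follow describe the class and test nothing.

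The study compared matrices for growing inner ear organoids from human embryonic stem cells of the WA25 line with a SOX2 reporter (nuclear tdTomato), and only reporter-positive cells were sorted and sequenced. The GelNB-CH group was embedded on day 11 in GelNB-CH hydrogel with LAP and 0.1 wt% PEG4SH, polymerised under UV light, and was given 0.02% oDex on day 15. The Matrigel group is named for a basement membrane extract; the growth text of both libraries gives the GelNB-CH procedure, so no separate Matrigel embedding step is known here. Both groups shared the reporter line, the day of collection, early treatment with FGF-2, SB-431542, BMP-4, LDN193189 and CHIR99021, and growth factor-reduced Matrigel in the medium at the start. Each group is 1 library, cells are not replicates, and intervals below are 95% and cover counting error only.

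Class cells were deeper in UMIs than other otic cells in both libraries. The median was 12102 UMIs in the class and 9649 in other otic cells in GelNB-CH, and 19488 and 15252 in Matrigel. The libraries shared 78 barcodes, of which 6 were GelNB-CH cells of the class and 0 were Matrigel cells of the class. Scrublet marked 9.26% of the class as doublets in GelNB-CH and 2.54% in Matrigel, against 10.1% and 2.90% of other otic cells, and they were kept.

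The otic vesicle gives rise to the sensory patches of the inner ear and to the non-sensory epithelium that keeps endolymph, the potassium-rich fluid of the inner ear, at its ionic composition. Proton pumps of the V-ATPase family and carbonic anhydrases move acid and bicarbonate across such epithelia. NPY is a secreted neuropeptide, CITED1 a transcriptional co-activator without its own DNA-binding domain, ATP6V0D2 an alternative d subunit of the membrane sector of the V-ATPase, and CA2 a cytosolic carbonic anhydrase. OC90 encodes the main protein of mammalian otoconia and marks non-sensory otic epithelium.

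As a share of otic cells the class took up 18.2% in GelNB-CH (17.3 to 19.2, exact Clopper-Pearson interval, 1134 of 6228) and 17.3% in Matrigel (15.69 to 19.01, 354 of 2046). The intervals overlap. Other otic populations differed more between the libraries: B-led cells were 15.6% in GelNB-CH and 4.99% in Matrigel, and C-led cells 23.2% and 41.6%. Since cells entered by a fixed number of UMIs, depth bears on the share. After thinning every cell to 5000 UMIs it was 14.7% in GelNB-CH and 12.9% in Matrigel. NPY carried more of the class in GelNB-CH, since leaving NPY out of the D sum left 10.6% of otic cells in GelNB-CH and 12.9% in Matrigel.

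Levels are given in CPM, the depth-scaled count, with UMIs summed over the cells of a population. NPY stood at 626 CPM in the class against 42.3 CPM in other otic cells in GelNB-CH, and at 366 against 27.4 CPM in Matrigel. CITED1 stood at 303 against 24.3 CPM in GelNB-CH and at 350 against 28.0 CPM in Matrigel. CA2 stood at 211 against 35.7 CPM in GelNB-CH and at 302 against 58.5 CPM in Matrigel. ATP6V0D2, the lowest of the set, stood at 34.7 against 4.11 CPM in GelNB-CH and at 78.0 against 9.96 CPM in Matrigel. NPY was thus higher in GelNB-CH, and CITED1, CA2 and ATP6V0D2 were higher in Matrigel. The class held 58.0% of all NPY UMIs of the kept GelNB-CH cells and 58.3% of those of the kept Matrigel cells. OC90 was the shared otic gene, at 5398 against 4074 CPM in GelNB-CH and 4740 against 3262 CPM in Matrigel.

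**Figure D1:**
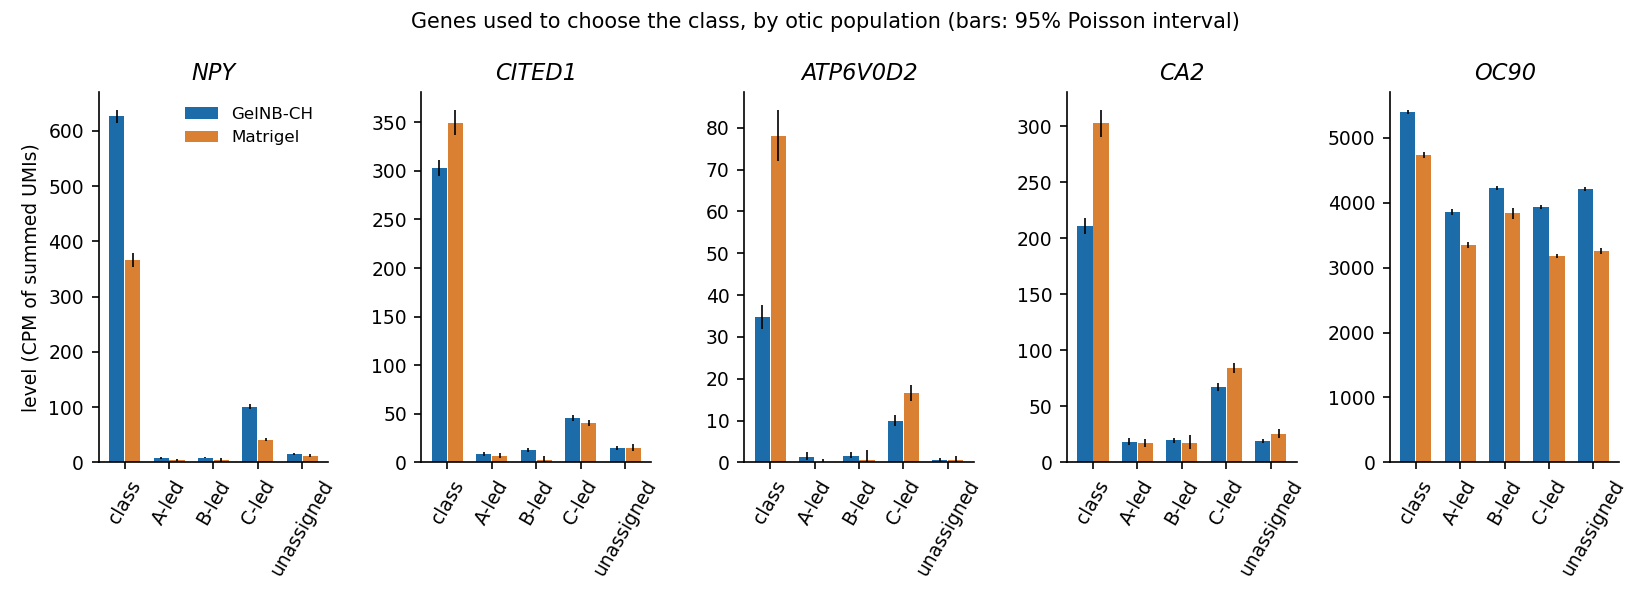
Levels of the genes that chose the class (CPM of summed UMIs, 95% Poisson intervals) in the class and in the A-led, B-led, C-led and unassigned otic cells of GelNB-CH and Matrigel. Outside the class, C-led cells hold the highest levels of NPY, 101 CPM for GelNB-CH and 41.0 CPM for Matrigel, while OC90 is high in every population.

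Each gene of the D sum was also measured in cells chosen without it, an alternative added after the data were seen. With CITED1 left out of the rule, it was still 6.82-fold higher in the chosen cells than in other otic cells in GelNB-CH and 6.80-fold higher in Matrigel. The ratio was 4.67 in GelNB-CH and 5.80 in Matrigel for ATP6V0D2, and 3.58 and 3.51 for CA2. For NPY it was the smallest, at 2.51 in GelNB-CH (2.41 to 2.61) and 2.27 in Matrigel (2.12 to 2.43). Each gene was thus higher in cells chosen by the rest of the D sum. The 4 were grouped with earlier results of these data known, so this tests nothing. With NPY left out, cells that NPY had brought into the class joined the other otic cells, which lowers its ratio. NPY in other otic cells was then 138 CPM in GelNB-CH, against 42.3 CPM under the full rule, and 81.0 against 27.4 CPM in Matrigel.

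Single cells of the class carried the 4 genes in uneven combinations. An NPY UMI was found in 68.5% of class cells in GelNB-CH and 52.3% in Matrigel, a CITED1 UMI in 71.2% and 78.0%, a CA2 UMI in 68.2% and 80.8%, and an ATP6V0D2 UMI in 15.9% and 29.9%. All 4 genes were detected in 64 GelNB-CH cells (5.64%) and 36 Matrigel cells (10.2%). The commonest single pattern in GelNB-CH was NPY, CITED1 and CA2 without ATP6V0D2, in 293 cells, and in Matrigel CITED1 and CA2 alone, in 80 cells. Cells with NPY and none of the other 3 numbered 162 in GelNB-CH and 33 in Matrigel. These shares depend on depth: after thinning, NPY was found in 59.6% of GelNB-CH class cells and 42.3% of Matrigel class cells. In COL1A2-positive mesenchymal cells, which should lack NPY, the thinned share was 1.03% in GelNB-CH and 0.384% in Matrigel.

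The threshold of the rule had cells close to it on both sides. Cells whose D sum led with 2 UMIs, just outside, numbered 88 in GelNB-CH and 19 in Matrigel, and cells with 3 UMIs, just inside, 96 and 13. A further 619 GelNB-CH cells and 310 Matrigel cells had a D sum of at least 3 but another sum as high or higher. PTGDS, encoding the lipocalin-type prostaglandin D synthase, was at 35.9 CPM just outside and 55.5 CPM just inside in GelNB-CH, and at 19.5 and 87.6 CPM in Matrigel, where it was back at 16.7 CPM at a D sum of 4. KRT17, a keratin described below, did not follow the D sum near the threshold: in GelNB-CH it was at 221, 155, 15.6 and 229 CPM at D sums of 1, 2, 3 and 4, and in Matrigel at 23.4, 35.2, 290 and 4.18 CPM. In cells with a D sum of 20 or more PTGDS reached 359 CPM for GelNB-CH and 342 CPM for Matrigel. These cells were also the deepest, at a median of 16113 UMIs in GelNB-CH and 24492 UMIs in Matrigel.

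**Figure D2:**
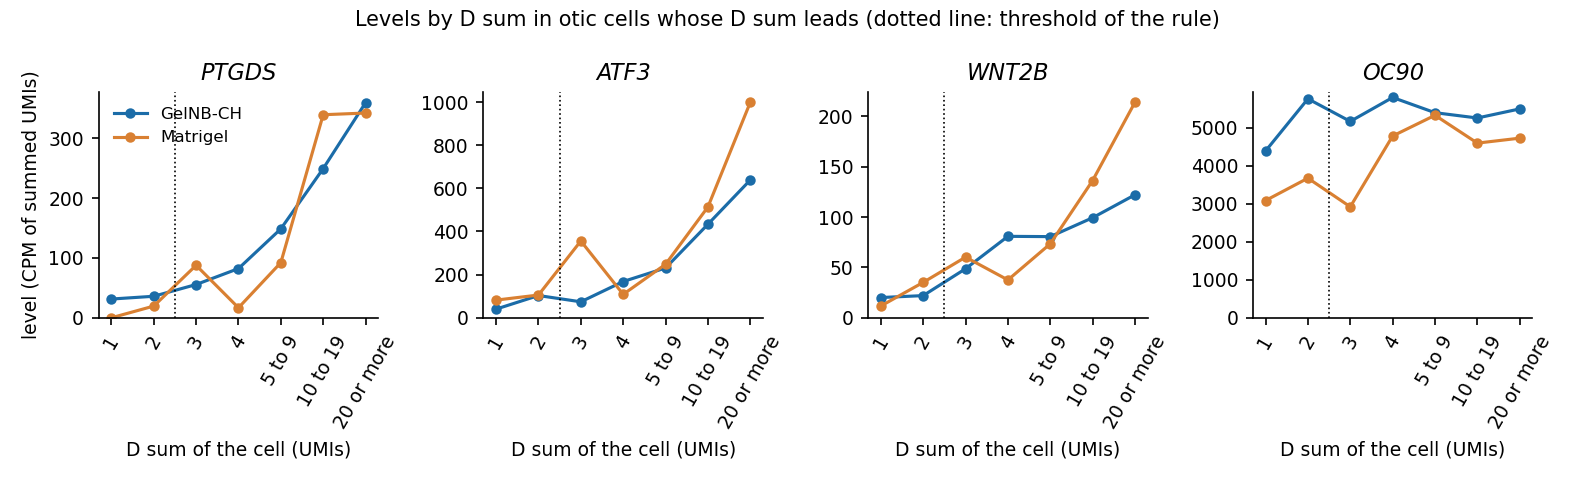
Levels (CPM of summed UMIs) of PTGDS, ATF3, WNT2B and OC90 in otic cells whose D sum leads, by D sum in UMIs, for GelNB-CH and Matrigel; the dotted line is the threshold. ATF3 is highest at a D sum of 20 or more, 639 CPM for GelNB-CH and 999 CPM for Matrigel, while OC90 at 2 UMIs is already 5760 CPM for GelNB-CH and 3673 CPM for Matrigel; Matrigel points at 1 to 4 UMIs hold 13 to 19 cells each.

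Across 10004 genes compared between the class and other otic cells, 166 (1.66%) were at least 2-fold higher in the class in both libraries and 124 (1.24%) at least 2-fold lower. A gene was compared where the larger of its CPM values was at least 10 in each library. Fewest genes separated the class from C-led cells: 115 of 9991 genes (1.15%) were 2-fold higher than in C-led cells and 98 (0.981%) lower. The same shares were 2.97% and 3.21% against A-led cells and 2.58% and 2.54% against B-led cells. Genes of the rule were left in these counts. NPY, CITED1, ATP6V0D2 and CA2 are therefore among the higher genes by construction, and genes of A, B and C can be among the lower. Because the rule demanded a D sum above A, B and C, genes that go with those sums are also lower in the class by construction. Among markers of other cell types, mesenchyme markers summed to 118 against 133 CPM in GelNB-CH and 57.7 against 78.0 CPM in Matrigel, and glial markers to 290 against 334 CPM and 226 against 337 CPM, with cartilage, neuron and hair cell markers also lower in the class. By sum, choroid plexus markers were higher in the class, at 341 against 332 CPM in GelNB-CH and 321 against 274 CPM in Matrigel. Melanocyte markers summed to 30.2 against 22.01 CPM and 25.7 against 18.1 CPM. The choroid plexus list includes OTX2, a gene of the B sum, so its comparison is partly set by the rule. It also includes LMX1A, which is on the otic identity list too. List medians, which leave out rule genes, did not all follow the sums. The choroid plexus median log2 ratio was -0.10 in GelNB-CH and -0.11 in Matrigel. For mesenchyme it was -0.20 in GelNB-CH and 0.16 in Matrigel, where 2 of 3 compared members were higher. Stratified epithelium markers summed to 359 against 37.8 CPM in GelNB-CH and 277 against 19.7 CPM in Matrigel, most of it KRT17. The part of such cells in the results was not tested.

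KRT17, a keratin of basal and stratified epithelium and of stressed epithelial cells, had the largest ratio among the named genes, which leave out the rule genes and clone-named genes. It lies on chromosome 17 from 41619441 to 41624842 on the minus strand (GRCh38, GENCODE 29). It stood at 310 CPM in the class against 19.8 CPM in other otic cells in GelNB-CH, 15.7-fold (14.7 to 16.7), and at 244 against 9.01 CPM in Matrigel, 27.1-fold (23.9 to 30.9). The Matrigel ratio was 10.52 after thinning to 5000 UMIs and 42.5 in cells of 8000 to 16000 UMIs, well outside that interval, and without the cells Scrublet marked DCC exceeded KRT17 in GelNB-CH, 22.3 against 15.7. The KRT17 signal was uneven: a UMI was found in 23.9% of class cells in GelNB-CH and 24.0% in Matrigel, and the 5 highest cells held 14.9% and 25.1% of all its UMIs. KRT14, a second keratin of stratified epithelium, was 4.08-fold higher in GelNB-CH and 4.16-fold higher in Matrigel at low levels, 28.1 and 19.1 CPM in the class. TP63, KRT5, KRT13, KRT15 and SFN, the rest of that list, did not reach 10 CPM in the class in either library.

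PTGDS, on chromosome 9 from 136975092 to 136981742 on the plus strand, stood at 247 CPM in the class against 24.7 CPM in other otic cells in GelNB-CH, and at 290 against 21.6 CPM in Matrigel. DCC, the netrin receptor, was at 231 against 38.0 CPM in GelNB-CH and at 549 against 30.2 CPM in Matrigel. The Matrigel DCC value leans on few cells, since 5 cells held 39.8% of its UMIs. In GelNB-CH the DCC ratio was 6.07 with all cells and 22.3 without the cells Scrublet marked. In Matrigel the ratios of PTGDS and DCC, 13.4 and 18.2, were 7.95 and 7.72 after thinning and 27.2 and 32.9 in cells of 8000 to 16000 UMIs. WNT2B, a secreted WNT ligand, was at 99.6 against 17.4 CPM in GelNB-CH and at 167 against 28.4 CPM in Matrigel. DACH2, a transcriptional co-factor of the DACH family, was at 92.9 against 20.0 CPM in GelNB-CH and at 182 against 26.4 CPM in Matrigel.

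The other named genes that were higher were of several kinds. FXYD3, a regulatory subunit of the sodium-potassium pump, was 7.58-fold higher in GelNB-CH and 5.72-fold higher in Matrigel. ITPKC, which phosphorylates inositol trisphosphate, was 5.86-fold and 8.39-fold higher. ISG15, an interferon-inducible ubiquitin-like protein, reached 509 CPM in the class against 96.7 CPM in other otic cells in GelNB-CH, and 362 against 75.6 CPM in Matrigel. TAGLN, an actin-binding protein, was 6.37-fold higher in GelNB-CH and 4.59-fold higher in Matrigel. CYTOR, a long noncoding RNA, was 9.10-fold and 8.52-fold higher, and its count is uncertain because MIR4435-2HG is a near-identical copy.

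**Figure D3:**
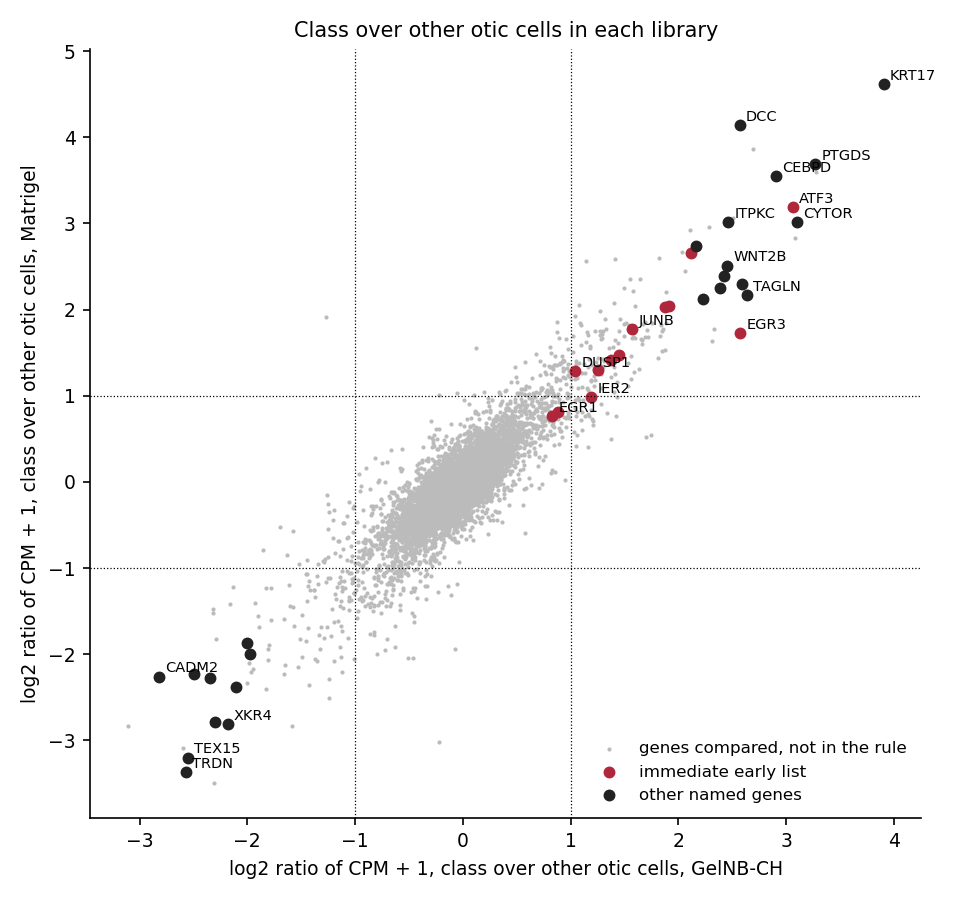
Ratio of class over other otic cells (log2 of CPM plus 1) for each gene compared, GelNB-CH on the horizontal axis and Matrigel on the vertical axis; dotted lines mark 2-fold. KRT17 is the farthest point at the upper right, 15.7-fold and 27.1-fold higher, and the immediate early genes (red) lie above 0 on both axes.

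Immediate early genes, which cells transcribe within minutes of a stimulus without new protein synthesis, were the list with the most members apart. Of 14 listed genes, 13 were compared in both libraries, 10 were at least 2-fold higher in the class in both and 0 were 2-fold lower, against 1.66% of all genes higher. Their median log2 ratio was 1.45 in GelNB-CH and 1.47 in Matrigel, against -0.055 in each library for all genes. ATF3, a stress-induced transcription factor, stood at 429 CPM in the class against 50.5 CPM in other otic cells in GelNB-CH, and at 734 against 79.4 CPM in Matrigel. FOS, a subunit of the AP-1 transcription factor, stood at 911 against 333 CPM in GelNB-CH and at 1286 against 463 CPM in Matrigel. EGR3, a zinc finger factor of the same early response, was 6.34-fold higher in GelNB-CH and 3.38-fold higher in Matrigel. NR4A1, an orphan nuclear receptor, was 3.73-fold and 4.13-fold higher, and the mRNA decay factor ZFP36 4.56-fold and 6.55-fold. The members short of 2-fold in both libraries were EGR1, 1.78-fold and 1.70-fold, and IER3, 1.88-fold and 1.79-fold. IER2 was 2.29-fold higher in GelNB-CH and 1.98-fold in Matrigel.

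The early gene signal was uneven within the class. A FOS UMI was found in 82.1% of class cells in GelNB-CH and 89.0% in Matrigel, a share not counted for other otic cells. With each cell thinned to 5000 UMIs, the 14 genes summed to a median of 11 UMIs per class cell against 5 per other otic cell in GelNB-CH, and 18 against 5 in Matrigel. In class cells with NPY and none of the other D genes the median was 5 UMIs in GelNB-CH and 3 in Matrigel. The ranges overlap widely: from the 10th to the 90th percentile class cells ran from 2 to 52.5 UMIs in GelNB-CH and from 2 to 55 in Matrigel, and other otic cells from 1 to 17 and from 0 to 19. Cells were dissociated with Accutase and sorted before capture, and the part of handling in these levels was not tested. Of 10 heat shock genes 0 were apart in both libraries, near the background of 1.66% higher and 1.24% lower. Their median log2 ratios were -0.01 in GelNB-CH and 0.14 in Matrigel.

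Promoters are shown for 4 genes of this group of results: CITED1 from the rule, the early genes FOS and DUSP1, and MAFF, a small MAF factor 5.86-fold higher in GelNB-CH and 5.48-fold higher in Matrigel. Each is the 250 bases before the RefSeq start, GRCh38.p14, written 5′ to 3′ on the gene's strand. Capitals mark matches to the cyclic AMP response element TGACGTCA (both strands), the CArG box named by that name (both strands) and TATAAA (the gene's strand). AP-1 sites, TGANTCA on both strands, were also searched and none of the 4 windows holds one. CITED1 lies at chrX:72307158-72307407, minus strand; FOS at chr14:75278578-75278827, plus strand; DUSP1 at chr5:172771196-172771445, minus strand; MAFF at chr22:38201744-38201993, plus strand.
CITED1: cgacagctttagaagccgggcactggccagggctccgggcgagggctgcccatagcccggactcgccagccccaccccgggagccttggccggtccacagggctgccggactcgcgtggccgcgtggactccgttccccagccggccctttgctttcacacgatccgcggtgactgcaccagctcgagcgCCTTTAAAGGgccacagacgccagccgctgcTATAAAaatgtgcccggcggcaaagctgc
FOS: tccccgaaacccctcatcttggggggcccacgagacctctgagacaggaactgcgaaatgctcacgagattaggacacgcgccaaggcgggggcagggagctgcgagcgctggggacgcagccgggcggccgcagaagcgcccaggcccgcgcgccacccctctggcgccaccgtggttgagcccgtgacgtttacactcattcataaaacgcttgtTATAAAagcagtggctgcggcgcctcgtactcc
DUSP1: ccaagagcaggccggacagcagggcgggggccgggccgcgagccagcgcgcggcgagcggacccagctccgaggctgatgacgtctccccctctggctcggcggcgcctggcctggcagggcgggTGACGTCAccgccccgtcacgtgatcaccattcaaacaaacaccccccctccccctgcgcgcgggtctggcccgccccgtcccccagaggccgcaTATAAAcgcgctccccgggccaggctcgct
MAFF: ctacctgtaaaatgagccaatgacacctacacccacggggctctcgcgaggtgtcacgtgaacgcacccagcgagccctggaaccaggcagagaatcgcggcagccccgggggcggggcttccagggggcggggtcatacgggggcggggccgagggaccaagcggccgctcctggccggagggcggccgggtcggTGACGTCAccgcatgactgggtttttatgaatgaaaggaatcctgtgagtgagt
CITED1 carries a CArG box and a TATA motif, FOS a TATA motif, DUSP1 a cyclic AMP response element and a TATA motif, and MAFF a cyclic AMP response element. Over all 27305 promoters of the table, 1.77% held the cyclic AMP response element, 1.14% the CArG box, 6.60% the AP-1 site and 7.17% TATAAA. Over the 7882 promoters of the compared genes the shares were 3.17%, 1.03%, 3.46% and 3.06% in that order, and over the 106 genes 2-fold higher in the class 5.66%, 2.83%, 9.43% and 14.2%. Of the 9 early genes 2-fold higher in the class whose promoters are in the table, 1 held the cyclic AMP response element, 4 held TATAAA and 0 held a CArG box or AP-1 site in this window. The 4 promoters printed were picked because they hold a motif, after the search. These matches are letters in a window and are not measured binding.

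Of 7 compared targets of ATF4 and ATF5, 2 were higher in the class in both libraries, DDIT3 and CEBPB, against 1.66% of all genes. DDIT3, a transcription factor of the unfolded protein response, stood at 228 CPM in the class against 63.6 CPM in other otic cells in GelNB-CH, and at 306 against 94.3 CPM in Matrigel. Of the p53 targets 7 were compared and 0 were apart in both libraries. CEBPD, an acute-phase transcription factor, was 8.26-fold higher in GelNB-CH and 13.0-fold higher in Matrigel, and BTG2, an antiproliferative gene, 4.74-fold and 4.38-fold. HERPUD1, a membrane protein of endoplasmic reticulum protein degradation, was 3.40-fold and 3.62-fold higher, the 1 member apart of 12 endoplasmic reticulum chaperone and quality-control genes, against 1.66% of all genes. Of these 12, 11 were higher in the class in GelNB-CH and 12 in Matrigel, with median log2 ratios of 0.35 and 0.54. Over all genes compared, 4252 of 10258 were higher in the class in GelNB-CH and 4500 of 10540 in Matrigel, with a median of -0.055 in each.

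Otic identity genes gave no count beyond the background. Of 18 listed genes 16 were compared and 0 were apart in both libraries, near the background of 1.66% higher and 1.24% lower, although in Matrigel alone 1 was higher and 2 were lower, with median log2 ratios of 0.13 in GelNB-CH and 0.00 in Matrigel. PAX2, the otic paired-box factor, stood at 410.5 CPM in the class against 342.5 CPM in other otic cells in GelNB-CH, and at 404 against 471 CPM in Matrigel. EPCAM, an epithelial adhesion molecule, was 1.42-fold and 1.44-fold higher. SOX2 was lower in the class, at 8.72 against 13.5 CPM in GelNB-CH and at 8.54 against 22.6 CPM in Matrigel.

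Markers of ion-transporting cells were low or at like levels inside and outside the class. Of the 12 endolymphatic sac ionocyte markers, FOXI1, the transcription factor of ionocytes, and the ionocyte pump subunits ATP6V1B1 and ATP6V1G3 had 0 UMIs in the class in both libraries. With 3 UMIs as the limit that a count of 0 allows, this permits up to 0.188 CPM for GelNB-CH and 0.377 CPM for Matrigel. The 12 ionocyte markers summed to 12.4 CPM in the class against 24.5 CPM in other otic cells in GelNB-CH. In Matrigel they summed to 17.45 against 15.3 CPM. Only the pump subunit ATP6V1C2 reached 10 CPM in the class, in Matrigel alone, with a log2 ratio over other otic cells of 0.38. Of the V1 subunits of the V-ATPase 8 were compared in both libraries and 0 were apart, with median log2 ratios of 0.11 in GelNB-CH and 0.15 in Matrigel. Of the V0 and accessory subunits outside the rule 9 were compared and 0 were apart. ATP6V0D1, the d subunit that most cells use, was at 45.9 CPM in the class against 37.3 CPM in other otic cells in GelNB-CH, and at 38.7 against 28.8 CPM in Matrigel. Both libraries thus had the widespread d subunit alongside ATP6V0D2 in the class.

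Of the carbonic anhydrases outside the rule 8 were compared and 0 were apart in both libraries. CA3 was 1.69-fold higher in GelNB-CH and 1.43-fold higher in Matrigel. CA8, whose protein lacks carbonic anhydrase activity, was 0.78-fold in GelNB-CH and 0.42-fold in Matrigel. Of the bicarbonate and anion transporters 6 were compared in both libraries and 0 were apart in both. In GelNB-CH alone 8 were compared and 2 were 2-fold lower, with a median log2 ratio of -0.47, and in Matrigel alone 8 were compared and 1 was 2-fold lower, with a median of -0.28. SLC26A4, encoding pendrin, a chloride and bicarbonate exchanger, was lower at small levels, 4.83 against 16.5 CPM in GelNB-CH and 1.51 against 3.87 CPM in Matrigel. ATP6V0D2 and CA2 are also osteoclast genes. The 8 osteoclast or macrophage markers were ACP5, CTSK, MMP9, NFATC1, DCSTAMP, OCSTAMP, CSF1R and the leukocyte gene PTPRC. They summed to 13.2 CPM in the class against 10.2 CPM in other otic cells in GelNB-CH, and to 8.03 against 8.82 CPM in Matrigel. In the class 0 of them reached 10 CPM, and DCSTAMP, OCSTAMP and PTPRC had 0 UMIs in both libraries. The part of such cells was not tested.

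CA2 and ATP6V0D2 lie near each other on chromosome 8, and genes between E2F5 and WWP1 there were read in genome order, a choice made after their values were seen. Closest to CA2, its antisense neighbour CA3-AS1 was 2.77-fold higher in the class in GelNB-CH and 2.75-fold higher in Matrigel. Between CA2 and ATP6V0D2, the noncoding gene AC100801.1 stood at 114 CPM in the class against 12.5 CPM in other otic cells in GelNB-CH, and at 204 against 27.8 CPM in Matrigel. Overlapping ATP6V0D2 on the opposite strand, PSKH2 was at 1.51 against 0.0836 CPM in GelNB-CH and at 4.77 against 0.688 CPM in Matrigel, levels of few UMIs. AC023194.3, also overlapping ATP6V0D2 on that strand, was 9.01-fold and 18.8-fold higher, from 24 and 54 UMIs in the class. Past ATP6V0D2, AC084128.1 was 4.44-fold and 7.16-fold higher, from 13 and 43 UMIs. On the other side CA3, beside CA2, was 1.69-fold and 1.43-fold higher. For the better counted genes farther out the ratios lay nearer to 1: 1.27 and 1.28 for CA13, 1.06 and 0.967 for CA1, and 0.948 and 0.842 for WWP1. Whether counting used strand is not stated in the labels or headers. It is therefore not known here whether reads of overlapping genes on opposite strands were counted apart. Such genes are CA2 and CA3-AS1, and ATP6V0D2 with PSKH2 and AC023194.3.

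Among 21 other peptide hormone genes 3 were compared in both libraries and PENK was apart. PENK, which encodes the enkephalin precursor, stood at 12.5 CPM in the class against 4.06 CPM in other otic cells in GelNB-CH, and at 10.2 against 0.852 CPM in Matrigel. The NPY receptor NPY1R and the prohormone convertase PCSK1 were both below 1 CPM in the class. The amidating enzyme PAM was present in all otic cells, at 87.5 CPM in the class against 117 CPM in other otic cells in GelNB-CH and at 82.0 against 105 CPM in Matrigel. CITED2, the paralogue of CITED1, was 2.31-fold and 2.29-fold higher. The claudins CLDN4 and CLDN8 were the 2 members apart of 15 tight junction genes, against 1.66% of all genes higher, CLDN4 at 478 against 218 CPM in GelNB-CH and at 588 against 245 CPM in Matrigel. HES4, a NOTCH-related repressor, was 2.98-fold and 3.46-fold higher, ID4 2.34-fold and 2.48-fold, and the patterning factor MSX2 2.27-fold and 2.56-fold.

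The named genes lower in the class had varied known roles. OTOL1, the collagen-like otolin of otoconia, stood at 9.29 CPM in the class against 39.5 CPM in other otic cells in GelNB-CH, and at 10.9 against 46.5 CPM in Matrigel. CADM2, a synaptic adhesion gene, was at 49.4 against 356 CPM in GelNB-CH and at 35.7 against 174 CPM in Matrigel. The adhesion gene CNTN5 was 0.19-fold and 0.20-fold, the glutamate receptor subunit GRIN2A 0.18-fold and 0.10-fold, and the galactolipid enzyme UGT8 0.21-fold and 0.16-fold. TRDN, triadin of muscle calcium release, was 0.15-fold in GelNB-CH and 0.058-fold in Matrigel, and TEX15, a meiosis gene, 0.14-fold and 0.066-fold. CSMD1 and XKR4 were also named, at 0.17-fold and 0.22-fold in GelNB-CH and 0.20-fold and 0.14-fold in Matrigel.

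The class was not uniform. Cells with an ATP6V0D2 UMI (180 in GelNB-CH, 106 in Matrigel) were set beside cells with NPY and none of the other 3 genes (162 and 33), a split made after values were seen. Of 9984 genes compared, 511 (5.12%) were at least 2-fold higher in ATP6V0D2-positive cells in both libraries and 214 (2.14%) lower. The ATP6V0D2-positive cells were deeper, with medians of 15648 UMIs in GelNB-CH and 22910 UMIs in Matrigel against 9509 and 15899 UMIs in NPY-only cells, and the part of depth was not tested.

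KRT17 stood at 722 CPM in ATP6V0D2-positive cells against 17.7 CPM in NPY-only cells in GelNB-CH, and at 492 against 1.71 CPM in Matrigel, where the lower value is 1 UMI. Other otic cells had 19.8 and 9.01 CPM. NPY-only cells were near that level in GelNB-CH, with 31 UMIs, and in Matrigel 1 UMI is too few to place them. PTGDS was at 433 against 16.6 CPM in GelNB-CH and at 434 against 20.5 CPM in Matrigel. ATF3 was at 945 against 27.4 CPM in GelNB-CH and at 1263 against 56.4 CPM in Matrigel. The simple-epithelium keratin KRT19 was at 1007 against 377 CPM in GelNB-CH and at 1717 against 432 CPM in Matrigel. OC90 went the other way, at 4530 against 5236 CPM in GelNB-CH and at 3741 against 4435 CPM in Matrigel. After thinning, early genes summed to a median of 29.5 UMIs per ATP6V0D2-positive cell against 5 per NPY-only cell in GelNB-CH, and 34 against 3 in Matrigel. In both libraries KRT17, PTGDS and ATF3 were thus high in ATP6V0D2-positive cells and at or under the level of other otic cells in NPY-only cells. They were not confined to cells with an ATP6V0D2 UMI. In the 954 GelNB-CH and 248 Matrigel class cells without one, KRT17 was at 207 and 112 CPM. PTGDS was at 200.5 and 214 CPM there and ATF3 at 299 and 452 CPM, all above other otic cells.

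**Figure D4:**
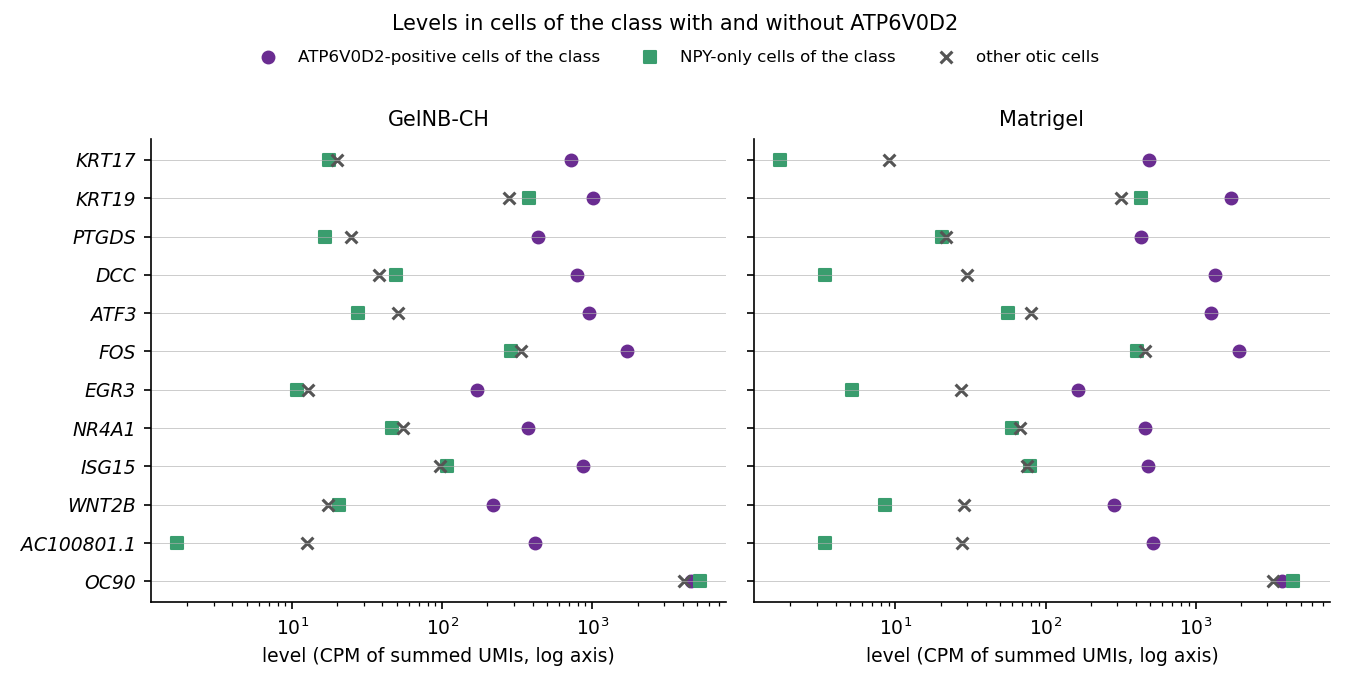
Levels (CPM of summed UMIs, log axis) of 12 genes in ATP6V0D2-positive cells of the class, in its NPY-only cells and in other otic cells, for GelNB-CH and Matrigel. KRT17 is at 722 CPM in ATP6V0D2-positive cells, 17.7 CPM in NPY-only cells and 19.8 CPM in other otic cells of GelNB-CH, while OC90 lies within a narrow range in all of them.

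Between the libraries, 100 of 10298 genes (0.971%) were at least 2-fold higher in the class in GelNB-CH than in Matrigel and 129 (1.25%) at least 2-fold lower. A gene was compared where the larger CPM was at least 10. With TMM scaling, whose factor of -0.083 on the log2 scale is subtracted from each ratio and so raises it, the split was 131 higher and 94 lower. Depth differed between the libraries, with medians of 12102 UMIs in GelNB-CH and 19488 UMIs in Matrigel. In cells of 8000 to 16000 UMIs (573 and 99 cells) the counts were 157 higher and 235 lower, and 41 of the 100 and 67 of the 129 genes were among them.

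Genes of the hypoxia response and glycolysis were lower in GelNB-CH. Of 17 listed genes 16 were compared, 11 were at least 2-fold lower and 0 were 2-fold higher, against 1.25% of all genes lower. Their median log2 ratio was -1.10, against -0.02 for all genes, and it ran from -1.21 to -0.93 over the alternatives. SLC2A1, the glucose transporter GLUT1, stood at 45.2 CPM in GelNB-CH against 174 CPM in Matrigel, a ratio of 0.26 (0.24 to 0.29). NDUFA4L2, a hypoxia-induced mitochondrial protein, stood at 33.9 CPM in GelNB-CH against 150 CPM in Matrigel. VEGFA, the angiogenic growth factor, was 0.37-fold, BNIP3, a mitophagy receptor, at 131 against 400 CPM, and LDHA, lactate dehydrogenase A, at 366 against 772 CPM. An SLC2A1 UMI was found in 31.2% of class cells in GelNB-CH and 67.5% in Matrigel. Other otic cells had the same direction for all 16 genes, with a median ratio of 0.546 against 0.461 in the class, and 5 of the 16 at least 2-fold lower.

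Targets of ATF4 and ATF5, transcription factors of the integrated stress response, were lower as well. Of 10 compared, 6 were at least 2-fold lower, against 1.25% of all genes, and 0 were 2-fold higher. Their median log2 ratio was -1.19, against -0.02 for all genes. TRIB3, a pseudokinase of that response, stood at 4.33 CPM in GelNB-CH against 22.5 CPM in Matrigel, ATF5 itself at 41.1 against 172 CPM and STC2, a secreted glycoprotein, at 6.21 against 23.1 CPM. In other otic cells all 10 were lower in GelNB-CH too, with a median ratio of 0.439 against 0.434 in the class. Neither list was therefore lower in the class alone. Of 13 immediate early genes 0 passed 2-fold in either direction, which is near the background of 0.971% and 1.25%. Of them 9 were lower in GelNB-CH, with a median log2 ratio of -0.35 against -0.02 for all genes, and of 0.05 in cells of like depth. FOS stood at 911 CPM in GelNB-CH against 1286 CPM in Matrigel.

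**Figure D5:**
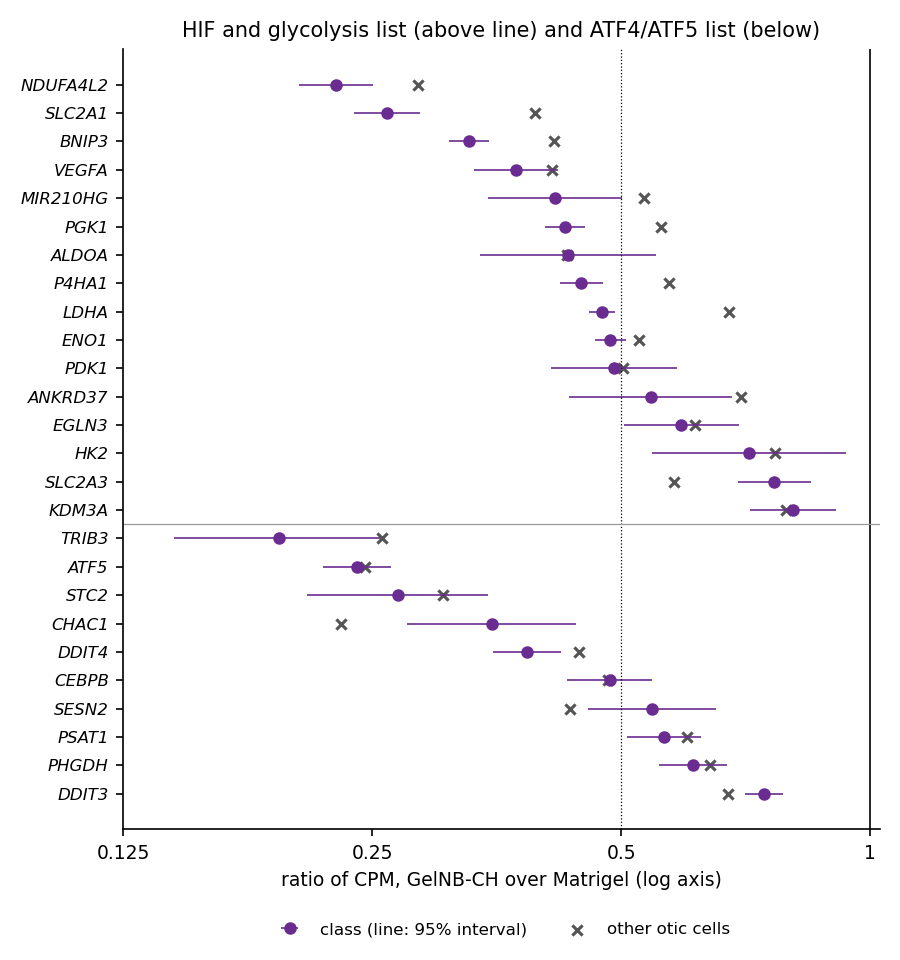
Ratio of CPM, GelNB-CH over Matrigel (log axis), for genes of the hypoxia and glycolysis list and of the ATF4 and ATF5 list with at least 10 CPM; circles are the class with 95% intervals and crosses other otic cells. All circles and crosses lie below 1, with NDUFA4L2 at 0.226 in the class and 0.284 in other otic cells.

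The other named genes lower in GelNB-CH covered several functions. C19orf33 stood at 17.6 CPM in GelNB-CH against 72.1 CPM in Matrigel, and was 9.38-fold and 17.9-fold higher in the class than in other otic cells. The antisense RNA NECTIN3-AS1 was at 94.8 against 296 CPM, the interferon-induced IFITM1 at 8.41 against 28.8 CPM, NXPH4 at 9.29 against 29.6 CPM and CLEC2A at 6.52 against 20.1 CPM. WARS, a tryptophan tRNA synthetase induced by interferon, was at 14.6 against 57.4 CPM, but 5 cells held 50.1% of its Matrigel UMIs. In cells of 8000 to 16000 UMIs its ratio was 1.61, the other direction.

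Among genes higher in GelNB-CH, cartilage genes were prominent. All 9 cartilage markers were higher in GelNB-CH, 4 of them at least 2-fold against 0.971% of all genes, with a median log2 ratio of 0.84 against -0.02 for all genes. ACAN, the aggrecan core protein, stood at 23.7 CPM in GelNB-CH against 3.64 CPM in Matrigel, MATN1, a cartilage matrilin, at 39.2 against 7.66 CPM, and HAPLN1, a hyaluronan link protein, at 51.1 against 7.03 CPM. The summed level of the 9 markers was 1975 CPM for GelNB-CH and 1360 CPM for Matrigel in the class, and 2343 and 1780 CPM in other otic cells. Cells with 3 or more UMIs of ACAN and MATN1 together and OC90 below 5 are called ACAN and MATN1 cells. There the sum was 15853 and 13959 CPM, partly set by the choice, since both genes are among the 9 markers. An ACAN UMI was found in 5.73% of class cells in GelNB-CH and 2.82% in Matrigel. Without the cells marked by Scrublet the ACAN ratio was 1.46 in place of 6.50, HAPLN1 2.02 in place of 7.27, and the list median 0.27; in cells of like depth the median was 0.05. Single genes of like depth did not all follow, with ACAN at 9.73 and EPYC at 12.7 there, and 99 Matrigel cells behind them. EPYC, a cartilage proteoglycan, stood at 68.3 CPM in GelNB-CH against 11.8 CPM in Matrigel in the class, and at 1679 and 1301 CPM in the ACAN and MATN1 cells. MGP, MATN4, DLK1, KCNQ5, LAMA4 and TPM2, also named here, were 3.62-fold to 4.86-fold higher in GelNB-CH. The level of each was higher still in the ACAN and MATN1 cells. Without the cells Scrublet marked the ratio was 1.90 for EPYC, 2.02 for MGP, 1.81 for MATN4, 2.30 for DLK1, 1.61 for LAMA4, 2.06 for TPM2 and 3.92 for KCNQ5, and TPM2 was at 1.28 in cells of like depth. The part of those cells' RNA in these values was not tested. The 12 mesenchyme markers also summed to more in the GelNB-CH class, 118 CPM against 57.7 CPM in the Matrigel class, as did the 10 glial markers, 290 against 226 CPM, and the 10 neuronal markers, 89.5 against 32.1 CPM. HES5, a NOTCH effector, stood at 26.4 CPM in GelNB-CH against 3.39 CPM in Matrigel, a ratio of 7.79 that was 2.68 without the cells Scrublet marked and 3.34 after thinning. SILC1, a long noncoding RNA, was different: at 39.7 against 10.4 CPM in the class, it was at 2.90 and 1.37 CPM in the ACAN and MATN1 cells.

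Some peptide and chaperone genes were also higher in GelNB-CH. SPX, which encodes the peptide hormone spexin, stood at 510 CPM in GelNB-CH against 244 CPM in Matrigel, and NPW, neuropeptide W, at 12.6 against 5.77 CPM. VGF, a secretory granule protein, was 7.95-fold higher in GelNB-CH at low levels. HSPA1A, an inducible HSP70, was the 1 heat shock member of 10 past 2-fold, at 187 against 90.0 CPM. Otic identity genes had 0 of 16 apart between the libraries, and SOX2 stood at 8.72 CPM in GelNB-CH against 8.54 CPM in Matrigel.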

How the data were processed

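Both libraries were deposited as 10x 3′ v3.1 matrices of UMI counts per gene and cell, raw counts that the authors did not normalise. The Cell Ranger version is 4.0.0 per the labels' protocols, whereas the file headers name 7.1.0; STAR and GRCh38 stand in the submitters' processing notes. Of 36601 genes, 34616 matched GENCODE 29 by identifier, which gave coordinates. Columns not used numbered 0.

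Counts were summed over the cells of a population and divided by the summed total (CPM). Intervals are exact Poisson for levels, exact conditional binomial for ratios and Clopper-Pearson for shares. Apart means 2-fold or more with 10 CPM or more on the higher side, and list medians used CPM plus 1. With 1 library per group there is no test. The members, the 41 lists and the rules were chosen with earlier results of these data known. Named genes were the 15 highest and 10 lowest against other otic cells and the 12 at each end between libraries, all reaching 20 CPM with intervals beyond 2-fold, without clone-named, ribosomal and mitochondrial genes, plus the extremes of each list. Doublets were kept; Scrublet in scanpy 1.11.5 gave an alternative, and edgeR 4.0.16 gave TMM factors. Other work used Python 3.11.15, numpy 2.4.6, scipy 1.17.1 and pandas 2.3.3. The scripts were tested on simulated counts. Thinning drew 5000 UMIs per cell. Promoters came from RefSeq (GRCh38.p14). Some genes that meet the naming rule are not reported here.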

Additional observations from a re-analysis of the deposited data

Results flagged for a closer look

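EPHA3, an ephrin receptor, differed in direction between the libraries. Its ratio of class over other otic cells was 0.377 in GelNB-CH, 5.90 CPM in the class against 15.6 CPM in other otic cells. In Matrigel the ratio was 4.90, 12.1 CPM in the class against 2.46 CPM in other otic cells. An EPHA3 UMI was found in 4.41% of class cells in GelNB-CH and 12.2% in Matrigel, and the 5 highest cells held 25.5% and 37.5% of its UMIs. The difference was not tested.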

How the results depend on the processing

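The share of otic cells in the class was 18.2% in GelNB-CH and 17.3% in Matrigel. In GelNB-CH it was 19.2% with OC90 of at least 10 UMIs, 19.6% with a D sum of at least 2 and 15.4% with at least 5. Thinned cells gave 14.7% in GelNB-CH and 12.9% in Matrigel, and leaving out NPY 10.6% and 12.9%, CITED1 14.6% and 14.4%, and CA2 14.6% and 13.1%. Between libraries, the 100 genes higher and 129 lower became 157 and 235 in cells of 8000 to 16000 UMIs, 53 and 63 with CPM of at least 20, and 177 and 260 with at least 5. Genes lower in the class, 124, became 82 with CPM of at least 20 and 197 with A, B and C weighted equally. Only WARS reversed, to 1.61 in cells of 8000 to 16000 UMIs. The causes were not tested, apart from the minimum CPM, which sets how many genes are compared. Of the alternative values of named genes, 354 lay within the interval of the reported ratio and 160 outside it in the same direction; of the list medians, 704 moved by at most 0.25 on the log2 scale and 34 by more. The level of each D gene in cells chosen without it, and the alternatives without cells with cartilage UMIs, were chosen after seeing the data; leaving out cells with any of 9 cartilage markers kept 3 and 1 class cells, so it gave no value. No paired analysis was possible because each group is 1 library. Depth limits genes under 10 CPM.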
